A study of Mus musculus with 10 samples.

Results

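The genes described here code for the enzymes that make retinoic acid, the proteins that bind it in the cytoplasm, its nuclear receptors and the enzymes that lower its level. They are 9 of the 39273 genes in the deposited table, taken by symbol. The receptors are *Rara*, *Rarb* and *Rarg*, the synthesis enzymes *Aldh1a1* and *Aldh1a3*, the binding proteins *Crabp1* and *Crabp2*, the retinal reductase *Dhrs3* and the degrading enzyme *Cyp26b1*.

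Retinoic acid is made from vitamin A (retinol) in a pair of oxidation steps. Alcohol dehydrogenases and retinol dehydrogenases form retinal, and the Aldh1a enzymes turn retinal into retinoic acid. The acid enters the nucleus and binds a retinoic acid receptor (RAR), which sits on DNA together with a retinoid X receptor (RXR) and changes the transcription of nearby genes. Dhrs3 returns retinal to retinol, and the Cyp26 enzymes oxidise retinoic acid for removal. In the developing kidney, retinoic acid made by stromal cells acts on receptors of the ureteric bud (UB) and is known for keeping *Ret*, which codes for the receptor of the growth factor GDNF, switched on in the bud tips.

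RNA-seq was made from mouse UB organoids, which are branching cultures of the epithelial bud that forms the collecting duct (CD), after 5, 10 and 20 days, from CD organoids made from UB organoids of day 10, and from adult mouse CD cells (adult mCD). Each of these 5 groups has 2 libraries. All libraries are labelled as C57BL/6 x Swiss Webster, Wnt11-RFP +/- and embryonic day 11, and the labels of days 5 and 10 also give E11.5. The label of adult mCD carries the same genotype and embryonic age, whereas the design text gives cells sorted from kidneys of Hoxb7-Venus mice of 2 months, which does not match that label. Wnt11-RFP marks bud tip cells, and Hoxb7-Venus marks UB-derived epithelium. Nothing in the labels says whether the replicates came from separate litters or cultures, so that the p-values measure only the spread between these libraries, which may be technical.

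The media differ in a retinoid. As the study's supplement lists them, the UB culture medium (mUBCM) contains TTNPB, a synthetic agonist of the retinoic acid receptors that is more stable than the acid itself, together with CHIR99021, GDNF, FGF9, Rspo1, LDN-193189, A83-01, SB202190 and a JAK inhibitor. The CD differentiation medium (CDDM) lists no TTNPB and no other retinoid, and contains FGF9, Y27632, DAPT, PD0325901, aldosterone and vasopressin. Both are supplemented with B-27 without vitamin A. All UB organoid libraries were thus in a medium with a receptor agonist up to collection. The CD organoids had first been expanded with it for 10 days in mUBCM and were then kept in CDDM, which lists none, up to collection. Adult mCD came, per the design text, from animals and not from either medium. The agonist and the other factors change together between UB and CD organoids and cannot be told apart. Time in culture differs as well, and its part was not tested. By the study's methods, CD organoids were cultured longer than UB organoids of day 10 but less long than those of day 20.

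Total counts ranged from 11913613 to 24536676 per library. Levels are given as CPM, counts scaled to one common library size after the TMM correction for composition. The limit of detection was set at 3 counts, which stood for between 0.109 and 0.241 CPM and covers counting error only. The tissue labels were checked on defining markers. *Ret* lay between 610.0 and 2100.3 CPM in the UB organoids and at 15.8 and 17.4 CPM in the CD organoids. *Aqp2*, the water channel of principal cells, and *Foxi1*, the transcription factor of intercalated cells, were at 485 and 632 CPM and at 472 and 508 CPM in the CD organoids, and at or below 6.88 CPM in every UB organoid library. In adult mCD, *Aqp2* was at 4542 and 4375 CPM and *Foxi1* at 169.4 and 168.7 CPM. *Wnt11*, the other UB tip marker, was at 376 and 496 CPM at day 5 but at 19.2 and 22.7 CPM at day 20. The adult mCD libraries also held RNA of other cells: 8 proximal tubule markers summed to between 8275 and 10312 CPM there, against at most 44.9 CPM in any organoid library, 4 markers of the loop of Henle to 3393 and 3595 CPM, and 4 endothelial markers to 499 and 506 CPM. In the CD organoids, 8 stromal markers summed to 259 and 128 CPM, against 19.9 to 26.1 CPM at day 10, and 4 of the 8 were called higher, but the stromal progenitor marker *Foxd1* had 1 count in each CD organoid library. Y-linked transcripts summed to at most 0.875 CPM at days 5 and 10 and to between 229.8 and 295 CPM in the other groups. The libraries of day 20 and of CD organoids therefore did not come from the cultures sequenced at day 10. Mitochondrial genes took 0.969% to 1.58% of counts at days 5 and 10 and 3.10% to 9.86% in the other groups, and total counts split likewise. Sex, this split, time and medium cannot be told apart in comparisons of day 5 or 10 with the other groups, and their parts were not tested. Words such as rose or fell from day 10 compare groups and do not follow a culture. In bulk RNA, fewer cells of a type and less RNA per cell cannot be told apart.

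The regulatory sequence best known for retinoic acid receptors is a direct repeat of a hexamer with 5 bases between the copies. It was searched for in the RefSeq promoter windows of GRCm38.p6, which run from 250 bases before to 50 bases after each transcript start, on both strands. Each copy could be AGGTCA itself or a close relative of it, first AGTTCA and then GGGTCA and lastly GGTTCA, both in the same orientation. It was found in 32 of 32851 windows (0.0974%). Windows were given for 7 of the 9 genes (14 windows), and *Rarb* was the 1 gene among them with a repeat. With 1 or 2 bases between the copies, the repeat was in 0.222% and 0.268% of all windows and in none of these 14. *Aldh1a3* and *Crabp2* have no entry in the tables used. The sequences below show the repeat of *Rarb* and that of *Cyp26a1*, the family member that degrades retinoic acid and serves as a standard reporter of receptor activity, with the repeat in capitals and the gene's own strand read 5′ to 3′.
Rarb, chr14:16575506-16575535, minus strand: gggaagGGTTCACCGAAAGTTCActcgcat
Cyp26a1, chr19:37697770-37697799, plus strand: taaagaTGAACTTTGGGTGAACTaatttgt

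The *Rarb* repeat lies from 53 to 37 bases before the RefSeq start, and 2 exon records of GENCODE M21 that begin further upstream include it. The *Cyp26a1* repeat lies from 32 to 16 bases before the start and reads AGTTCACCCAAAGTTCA on the other strand. A match is a description of the letters and not a measurement of receptor binding.

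The RAR genes were detected in every library, and *Rarb* was lower in CD organoids and adult mCD than at each UB day. *Rarb* had 32.2 and 29.8 CPM at day 5, 29.3 and 24.6 CPM at day 10, 19.1 and 20.4 CPM at day 20, 7.12 and 7.62 CPM in CD organoids and 5.95 and 5.11 CPM in adult mCD. No 2 of the 5 groups overlapped, and the order ran from day 5 down to adult mCD. How many of all genes separate the groups in this way was not counted, here or for the genes below. *Rarb* was also lower at day 20 than at day 5, by 0.65 ± 0.12 on the log2 scale (SE, adjusted p = 0.000544 from edgeR). That comparison crosses the split in Y-linked transcripts given above. From day 5 to day 10, which does not cross it, the log2 fold change was -0.20 ± 0.12 (SE, adjusted p = 0.212 from edgeR). CD organoids were 3.64-fold below day 10, a log2 fold change of -1.86 ± 0.14 (SE). The adjusted p of edgeR's quasi-likelihood test was 6.35e-08, but the change stayed under the 4-fold limit that, with an adjusted p of at most 0.01, defines a called gene here. From day 10 to CD organoids, 47.2% of all genes had an adjusted p of 0.05 or less in that test. Against day 20 the log2 fold change of CD organoids was -1.42 ± 0.14 (SE, adjusted p = 1.53e-06 from edgeR). CD organoids set against adult mCD gave a log2 fold change of 0.41 ± 0.16 (SE, adjusted p = 0.0491 from edgeR).

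*Rarb* (ENSMUSG00000017491.9) lies on the minus strand at chr14:16430839-16819156 of GRCm38. Of its exon bases, 34.1% are also exon of *Top2b*, a DNA topoisomerase gene on the other strand, and whether strand was used in counting is not given in the sources used here. *Top2b* had 259 and 290 CPM at day 10 and 215 and 220 CPM in CD organoids (log2 fold change -0.34), against -1.86 for *Rarb*.

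*Rara* and *Rarg* followed another course. *Rara* (chr11:98927818-98974942, plus strand), the most widely expressed receptor gene, had 68.2 and 85.2 CPM at day 5, 54.0 and 39.5 CPM at day 10, 28.3 and 33.1 CPM at day 20, 58.4 and 63.0 CPM in CD organoids and 67.0 and 60.7 CPM in adult mCD. *Rarg* (chr15:102234938-102257517, minus strand), known mostly from cartilage and skin, had 80.7 and 90.5 CPM at day 5, 71.3 and 48.5 CPM at day 10, 30.4 and 30.8 CPM at day 20, 54.3 and 59.4 CPM in CD organoids and 41.8 and 40.4 CPM in adult mCD. For both genes the 3 UB days did not overlap and day 20 was the lowest group. The log2 fold change from day 5 to day 20 was -1.32 ± 0.15 for *Rara* (SE, adjusted p = 5.69e-06 from edgeR) and -1.48 ± 0.14 for *Rarg* (SE, adjusted p = 1.73e-06 from edgeR), which passed the adjusted p but not the 4-fold limit.

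CD organoids lay above day 20 for these 2 receptors and below it for *Rarb*. The log2 fold change of CD organoids set against day 20 was 0.98 ± 0.15 for *Rara* (SE, adjusted p = 9.12e-05 from edgeR) and 0.89 ± 0.15 for *Rarg* (SE, adjusted p = 0.000192 from edgeR). *Rarg* libraries of CD organoids overlapped with those of day 10, and *Rara* libraries of CD organoids overlapped with those of adult mCD, whose log2 difference was -0.07 ± 0.14 (SE, adjusted p = 0.713 from edgeR). Without the composition factor that difference turned to 0.32.

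To compare the receptors with each other, CPM were divided by the length of the merged exons of each gene, and the share of each receptor in the sum of the 3 was taken. *Rarb* made up 13.6% ± 2.02 (SD, n = 2) at day 5, 17.3% ± 1.83 at day 10 and 20.9% ± 0.240 at day 20, and then 4.89% ± 0.0505 in CD organoids and 4.14% ± 0.225 in adult mCD. Its mean share thus was higher at each later UB day while its own CPM was lower. The step from day 10 to day 20 crosses the split in Y-linked transcripts given above, and the part of time was not tested. *Rara* made up 35.9% ± 0.279 (SD, n = 2) at day 10, 48.5% ± 0.238 in CD organoids and 57.7% ± 0.938 in adult mCD, and *Rarg* 46.8% ± 2.11, 46.6% ± 0.288 and 38.1% ± 1.16. The deposited gene lengths give another picture of the 2 larger shares. They add up the exons of all annotated transcripts and are 3.51 times the merged length for *Rara* but 1.84 times for *Rarg*. With them, *Rarg* led in every group, with 60.8% in CD organoids and 52.7% in adult mCD, and *Rarb* again made up less in CD organoids (5.86%) than at day 10 (19.5%). Which transcripts were present was not measured, so the order of *Rara* and *Rarg* depends on the length used, and the drop of *Rarb* from UB to CD organoids was present with both.

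**Figure D1:**
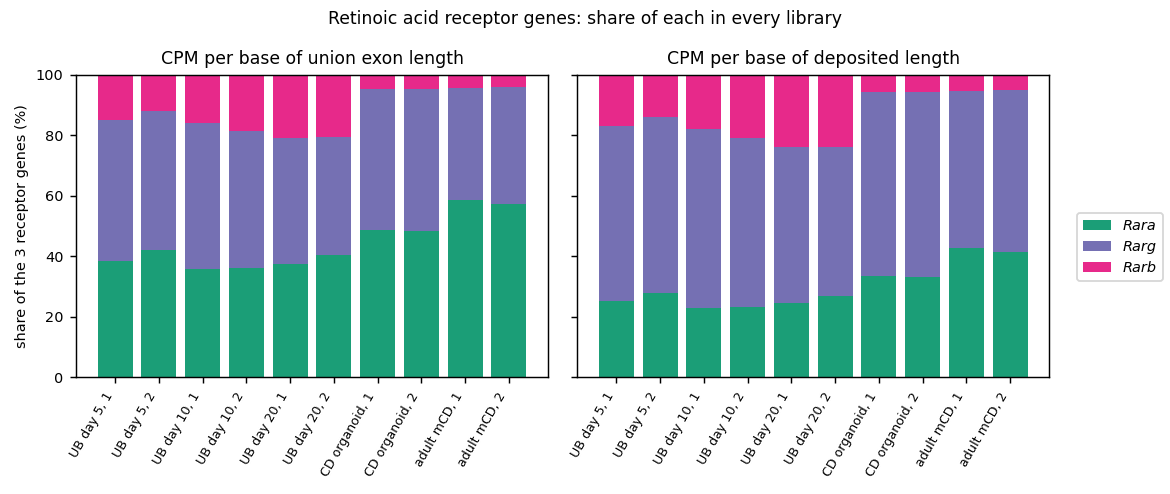
Share of *Rara*, *Rarg* and *Rarb* in the sum of the 3 receptor genes (%, vertical axis) in each of the 10 libraries, with CPM divided by merged exon length (left) or by the deposited gene length (right). *Rarb* takes 4.89% in CD organoids and 17.3% at day 10 on the left, and 5.86% and 19.5% on the right.

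*Aldh1a1* and *Aldh1a3* stood highest in UB organoids of day 20. *Aldh1a3* (chr7:66390890-66427517, minus strand) had 128 and 27.9 CPM at day 5, 326 and 255 CPM at day 10, 1314 and 1368 CPM at day 20, 514 and 424 CPM in CD organoids and 5.13 and 0.550 CPM in adult mCD. No 2 groups overlapped, although the libraries of day 5 and those of adult mCD differed several-fold between replicates. It rose 4.62-fold from day 10 to day 20, a log2 fold change of 2.21 ± 0.48 (SE, adjusted p = 0.00348 from edgeR), and this call was lost with DESeq2 (adjusted p = 0.0535), with limma (adjusted p = 0.0815) and without either library of day 20 (adjusted p = 0.0202 and 0.0240). Against day 5, the rise to day 20 was 17.2-fold (log2 fold change 4.11 ± 0.52 SE, adjusted p = 2.15e-05 from edgeR). From day 10 to CD organoids the log2 fold change was 0.69 ± 0.46 (SE, adjusted p = 0.242 from edgeR), although the libraries did not overlap. CD organoids were 160.0-fold above adult mCD, a log2 fold change of 7.32 ± 0.71 (SE, adjusted p = 1.09e-06 from edgeR). Leaving out 1 library at a time moved that value between 6.48, without the second adult mCD library, and 9.63, without the first.

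*Aldh1a1* (chr19:20492715-20643465, plus strand), the paralog best known from the liver and the retina, had 60.4 and 51.8 CPM at day 5, 47.0 and 122 CPM at day 10, 502 and 523 CPM at day 20, 72.3 and 73.8 CPM in CD organoids and 20.7 and 22.9 CPM in adult mCD. The 2 libraries of day 20 stood far above all others, and those of day 10 were spread around the values of day 5 and of CD organoids. It rose 6.06-fold from day 10 to day 20, a log2 fold change of 2.60 ± 0.29 (SE, adjusted p = 1.93e-05 from edgeR). CD organoids were 7.01-fold below day 20, a fall of 2.81 ± 0.29 on the log2 scale (SE, adjusted p = 2.78e-06 from edgeR). Against day 10 the log2 fold change was -0.21 ± 0.28 (SE, adjusted p = 0.573 from edgeR), and it turned to 0.65 without the second library of day 10. CD organoids were 3.35-fold above adult mCD (adjusted p = 0.0004 from edgeR), under the 4-fold limit, and past it with library totals (log2 fold change 2.14) or limma (2.14).

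*Aldh1a7*, a near-identical neighbour of *Aldh1a1* with which reads can be shared, followed it in part. It had 51.1 and 45.7 CPM at day 20 against 38.9 and 31.7 CPM at day 10, and it fell by 2.38 on the log2 scale from day 10 to CD organoids (adjusted p = 6.98e-07 from edgeR), where *Aldh1a1* was not called. From day 20 to CD organoids both genes fell, *Aldh1a7* by 2.84 on the log2 scale (adjusted p = 1.56e-07 from edgeR) and *Aldh1a1* by 2.81. *Aldh1a2*, the main enzyme of retinoic acid synthesis in the embryo and in kidney stroma, was at 0 to 4 counts in each UB organoid library. CD organoids had 4.13 and 0.481 CPM, or 58 and 6 counts, a mean at least 19.4-fold above the limit of 3 counts per library at day 10. The call against day 10 was lost without the first CD organoid library (adjusted p = 0.0669), which also held the larger sum of stromal markers, 259 against 128 CPM. The part of stromal RNA in the *Aldh1a2* value was not tested.

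*Crabp2*, which carries retinoic acid to the receptors, was a gene of the early cultures. *Crabp2* (chr3:87948666-87953376, plus strand) had 46.4 and 51.3 CPM at day 5, 6.66 and 3.21 CPM at day 10, 0.850 and 1.39 CPM at day 20, 2.99 and 3.53 CPM in CD organoids and 2.04 and 1.34 CPM in adult mCD. The libraries of day 5 stood far above all others, and the other 4 groups lay within a few CPM of each other. The gene fell 9.86-fold from day 5 to day 10, a log2 fold change of -3.30 ± 0.25 (SE, adjusted p = 8.07e-07 from edgeR), and 42.0-fold from day 5 to day 20, a log2 fold change of -5.39 ± 0.32 (SE, adjusted p = 2.52e-08 from edgeR). From day 10 to day 20 it fell 4.26-fold (adjusted p = 0.000664 from edgeR), on 14 and 21 counts at day 20, and that call was lost with a prior count of 5 (log2 fold change -1.91), in a fit of these 2 groups alone (adjusted p = 0.0206) or without the first library of day 10 (-1.46) or of day 20 (-1.76).

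For *Crabp2*, CD organoids overlapped with day 10, with a log2 fold change of -0.59 ± 0.31 (SE, adjusted p = 0.137 from edgeR), and lay above day 20 by 1.51 ± 0.40 on the log2 scale (SE, adjusted p = 0.00767 from edgeR).

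*Crabp1* (chr9:54764748-54773110, plus strand), the other cytoplasmic carrier, was at 0 to 4 counts in each library, too few for the test. *Fabp5*, a fatty acid binding protein that can carry retinoic acid to another nuclear receptor, had 22.4 and 24.4 CPM at day 10 and 3.99 and 4.49 CPM in CD organoids. *Fabp5* fell by 2.45 on the log2 scale between these groups (adjusted p = 1.04e-08 from edgeR).

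*Cyp26b1* was the member that changed most between UB organoids of day 10 and CD organoids. It lies on the minus strand at chr6:84571414-84593908. *Cyp26b1* had 209 and 290 CPM at day 5, 1014 and 644 CPM at day 10, 87.5 and 90.7 CPM at day 20, 51.5 and 98.8 CPM in CD organoids and 17.4 and 16.3 CPM in adult mCD. Day 10 was above every other group in both libraries, and the CD organoid libraries lay on either side of those of day 20. Day 10 was 3.32-fold above day 5 (adjusted p = 0.000133 from edgeR), under the 4-fold limit. CD organoids were 11.1-fold below day 10, a log2 fold change of -3.47 ± 0.27 (SE, adjusted p = 1.29e-07 from edgeR). Day 20 was 9.30-fold below day 10, a log2 fold change of -3.22 ± 0.27 (SE, adjusted p = 1.67e-06 from edgeR). CD organoids against day 20 gave a log2 fold change of -0.25 ± 0.26 (SE, adjusted p = 0.485 from edgeR). Both falls are measured from the same day 10 libraries, and both cross the split in Y-linked transcripts given above. The libraries of CD organoids overlapped with those of day 20. The cause of either fall was not tested.

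Against adult mCD, *Cyp26b1* was 4.44-fold higher in CD organoids (log2 fold change 2.15 ± 0.29 SE, adjusted p = 3.10e-05 from edgeR). Without the second CD organoid library the log2 fold change was 1.60 and the gene was no longer called. The RefSeq window of *Cyp26b1* held none of the repeats searched. *Cyp26a1*, which has the repeat printed above, had at most 6 counts in any library, with the agonist in the medium or without it. Over the 10 libraries, the genes whose log2(CPM + 1) was most alike to that of *Cyp26b1*, among 11831 genes with a mean of at least 5 CPM, were *Lingo1* (Pearson r = 0.983), *Zscan22* (0.980) and *Gm42979* (0.977), a description over libraries of 5 groups that share depth and preparation.

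*Dhrs3* (chr4:144892827-144928209, plus strand), which retinoic acid is known to induce, varied less than the other tested members in the ratio of its highest to its lowest library. It had 291 and 296 CPM at day 5, 336 and 282 CPM at day 10, 212 and 242 CPM at day 20, 281 and 340 CPM in CD organoids and 127 and 124 CPM in adult mCD. The libraries of CD organoids and of days 5 and 10 overlapped, and adult mCD was the lowest group. CD organoids differed from day 10 by 0.01 ± 0.10 on the log2 scale (SE, adjusted p = 0.980 from edgeR), and its sign changed with the settings. CD organoids were 2.47-fold above adult mCD (adjusted p = 2.10e-07 from edgeR), which did not pass the 4-fold limit.

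**Figure D2:**
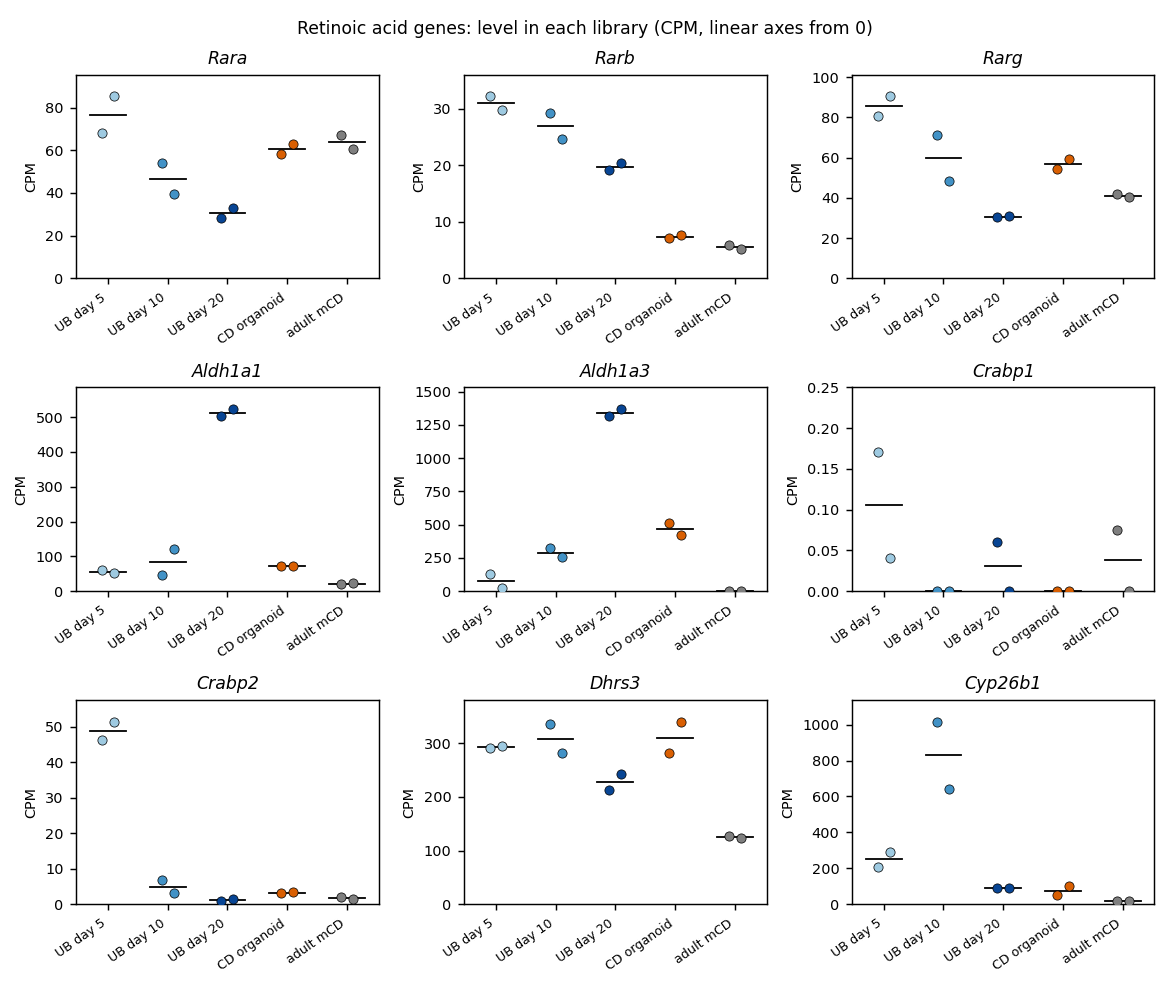
CPM (vertical axes, linear from 0) of the 9 genes in the 2 libraries (points) of each group, with the group mean as a line. *Aldh1a1* and *Aldh1a3* are highest at day 20 (means 512 and 1341 CPM), *Crabp2* at day 5 (48.9 CPM) and *Cyp26b1* at day 10 (829 CPM), and *Rarb* is lowest in CD organoids and adult mCD (7.37 and 5.53 CPM).

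Per kilobase of merged exon, the order of the genes changed from group to group. *Dhrs3* was first at day 5 with 100.2 ± 1.20 CPM per kilobase (SD, n = 2). *Cyp26b1* was first at day 10 with 155 ± 49.0. *Aldh1a3* was first at day 20 with 291 ± 8.27. In CD organoids *Dhrs3* (106 ± 14.1) and *Aldh1a3* (102 ± 13.8) were first and differed by less than their SD, and *Aldh1a1* (14.8 ± 0.217), *Cyp26b1* (14.0 ± 6.25), *Rara* (13.9 ± 0.741) and *Rarg* (13.3 ± 0.858) followed with overlapping spread. In adult mCD *Dhrs3* was first again (42.9 ± 0.828), followed by *Rara* (14.6 ± 1.02).

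Of the 9 genes, 8 had the 10 counts over all libraries that the test required. From day 5 to day 10, *Crabp2* was called lower and none higher, while 3.41% of the 24410 genes tested were called, 2.34% higher and 1.07% lower. From day 10 to day 20, 2 members were called higher (*Aldh1a1*, *Aldh1a3*) and 2 lower (*Crabp2*, *Cyp26b1*), against 3.39% of all genes, 1.66% higher and 1.73% lower. Between days 5 and 20, 2 were higher (*Aldh1a1*, *Aldh1a3*) and 1 lower (*Crabp2*), against 8.61%, 4.68% higher and 3.93% lower. From day 10 to CD organoids, 1 of 8 was called, *Cyp26b1*, which was lower. That share is near the 10.7% of all genes, 4.96% higher and 5.71% lower. CD organoids against day 20 gave 1 lower member (*Aldh1a1*), against 9.46%, 4.74% higher and 4.73% lower. Set against adult mCD, 2 members were higher in CD organoids (*Aldh1a3*, *Cyp26b1*) and none lower, against 14.3%, 4.50% higher and 9.84% lower. With library totals in place of the composition factor, 6.58% of all genes were called higher and 8.23% lower in that comparison, and 3 members were higher, *Aldh1a1* among them.

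When only an adjusted p of 0.05 or less from edgeR was asked for, with no limit on the fold, more members counted. From day 5 to day 10 they were 5 of 8, against 32.7% of all genes, and from day 10 to day 20 all 8, against 29.0%. Between days 5 and 20 they were again 8, against 45.1%. From day 10 to CD organoids 3 counted, *Rara*, *Rarb* and *Cyp26b1*, against 47.2%. Against day 20 and adult mCD they were 7 and 6, against 42.2% and 49.9%. The median log2 fold change over the 8 genes was -0.14 from day 10 to CD organoids and 1.11 for CD organoids against adult mCD, while that over all genes tested was -0.15 and 0. These comparisons share libraries and are not independent of each other.

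**Figure D3:**
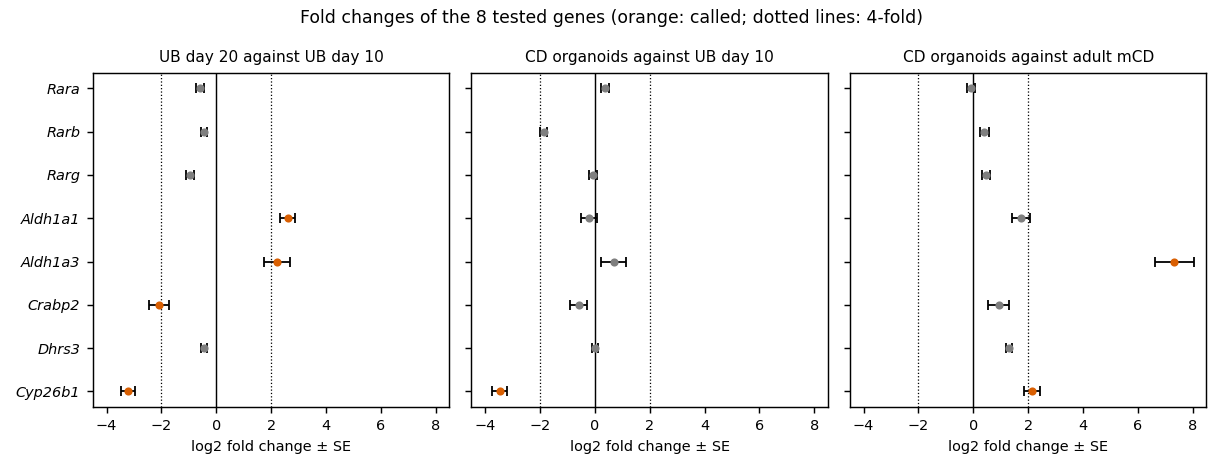
Log2 fold change ± SE (horizontal axis) of the 8 tested genes in 3 comparisons, with called genes in orange and dotted lines at 4-fold. From day 10 to day 20, 4 genes are called, from day 10 to CD organoids *Cyp26b1* alone (-3.47), and against adult mCD *Aldh1a3* (7.32) and *Cyp26b1* (2.15).

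The retinol uptake gene *Stra6* differed more between day 10 and CD organoids than any of the 8 members tested. Of 43 further genes of retinoid uptake, metabolism and signalling, 39 were tested, of which 3 passed as higher and 6 as lower in CD organoids against day 10, beside 10.7% of all genes called, 4.96% higher and 5.71% lower. *Stra6*, the membrane receptor that takes up retinol, had 272 and 308 CPM at day 5, 783 and 802 CPM at day 10, 470 and 414 CPM at day 20, 5.20 and 4.97 CPM in CD organoids and 3.32 and 1.41 CPM in adult mCD. All UB organoid libraries stood far above all CD libraries. *Stra6* fell by 7.27 ± 0.18 on the log2 scale from day 10 to CD organoids (SE, adjusted p = 3.45e-12 from edgeR).

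*Lrat*, which esterifies retinol for storage, had 7.30 and 14.2 CPM at day 10, 16.8 and 15.5 CPM at day 20 and 1.35 and 1.52 CPM in CD organoids. *Lrat* fell by 2.86 ± 0.37 on the log2 scale from day 10 to CD organoids (SE, adjusted p = 1.73e-05 from edgeR). Both *Stra6* and *Lrat* were low in adult mCD too, with a mean of 2.37 CPM for *Stra6* and 0.424 CPM for *Lrat*. Others called lower were *Aldh1a7* and *Fabp5*, given above, and *Lpl*, a lipase that frees retinyl esters from lipoproteins, with 19.4 CPM at day 10 and 2.12 CPM in CD organoids.

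In the other direction, *Adh1*, an alcohol dehydrogenase that oxidises retinol and other alcohols, had 0.436 and 1.64 CPM at day 10, 1.21 and 1.72 CPM at day 20, 164 and 157 CPM in CD organoids and 534 and 517 CPM in adult mCD. *Adh1* rose by 7.17 ± 0.23 on the log2 scale from day 10 to CD organoids (SE, adjusted p = 3.24e-11 from edgeR). The others called higher were *Aldh1a2*, given above, and *Ttr*, which codes for a plasma transport protein, at 0.463 CPM in CD organoids, below the 1 CPM set for giving values in full, whose call was lost without the second CD organoid library. *Rdh10*, the retinol dehydrogenase of the embryo, had 78.2 and 119 CPM at day 10, 181 and 188 CPM at day 20 and 41.7 and 37.9 CPM in CD organoids. Its fold change was under the limit from day 10 (log2 fold change -1.31) and past it from day 20 (-2.21, adjusted p = 3.87e-08 from edgeR).

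Of the RXR genes, *Rxra* had 122 and 120 CPM at day 10 and 203 and 180 CPM in CD organoids (log2 fold change 0.67, adjusted p = 9.11e-06 from edgeR, not past 4-fold). *Rxrb* had 53.4 and 45.0 CPM and 51.0 and 47.2 CPM. *Rxrg* had 0 counts in both CD organoid libraries and at most 2 counts at day 10.

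Against adult mCD, 1 of the 39 genes was called higher and 9 lower in CD organoids, with a median log2 fold change of -0.78 against 0 over all genes, of which 4.50% were called higher and 9.84% lower. The lower ones with a mean of at least 1 CPM were *Lpl*, *Stra6l*, *Ttr*, *Rdh16*, *Bco2*, *Bco1* and *Retsat*. *Rdh16*, a retinol dehydrogenase, had 50.9 CPM in adult mCD and 0.601 CPM in CD organoids, and *Retsat*, a retinol saturase, 99.8 and 24.8 CPM. All 8 proximal tubule markers were also called lower in CD organoids in this comparison, with a median log2 fold change of -9.33, and their part in these results was not tested. Without the first CD organoid library, 6 of the 39 genes were called in all, against 10 with it. *Retsat* was no longer past 4-fold without the composition factor (log2 fold change -1.62).

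**Figure D4:**
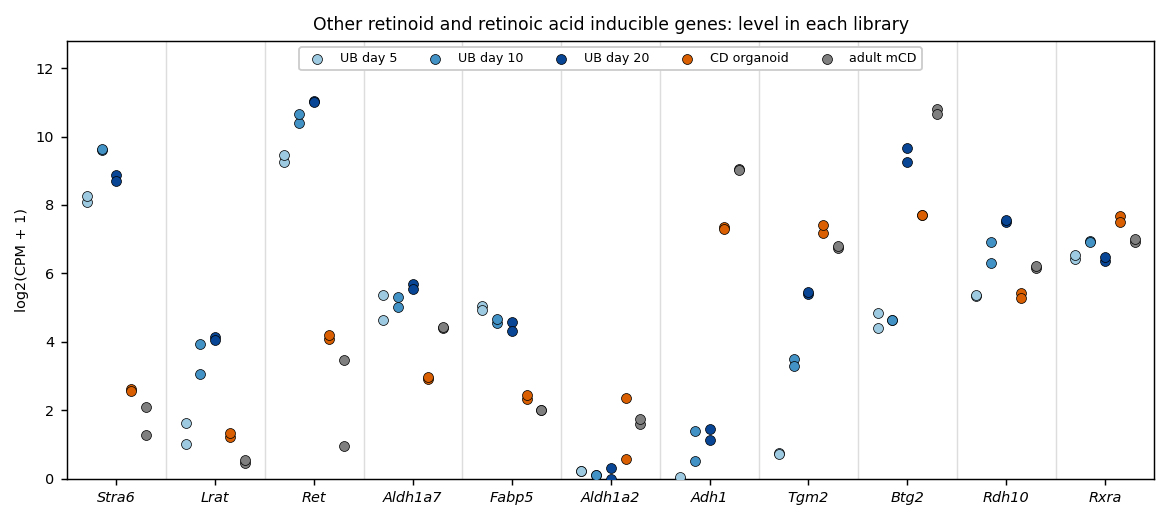
Log2(CPM + 1) (vertical axis) of 11 other retinoid and retinoic acid inducible genes in the 2 libraries of each group, by colour. *Stra6*, *Lrat* and *Ret* are higher in all 6 UB organoid libraries than in CD organoids, save *Lrat* at day 5, and *Adh1* and *Tgm2* are lower.

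A list of 24 genes that retinoic acid is known to induce in one tissue or another was counted in the same way. It shares 6 genes with the pathway list, *Stra6* and *Lrat* among them. Of its members, 20 were tested, of which 2 passed as higher and 4 as lower in CD organoids against day 10, with a median log2 fold change of -0.37 against -0.15 over all genes tested, of which 4.96% were called higher and 5.71% lower. Against day 20, 1 was higher and 5 were lower, with a median of -1.14 against 0, beside 4.74% of all genes called higher and 4.73% lower. Among the 4 lower than at day 10 were *Stra6*, *Lrat* and *Ret*. *Ret* had 1358 and 1608 CPM at day 10, 2100.3 and 2075 CPM at day 20 and 15.8 and 17.4 CPM in CD organoids. *Ret* fell by 6.48 ± 0.40 on the log2 scale (SE, adjusted p = 1.18e-08 from edgeR). *Ret* is also a marker of the bud tip, so retinoid response and cell type cannot be told apart in it.

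The inducible genes did not move as one. *Tgm2*, a transglutaminase, had 10.2 and 8.79 CPM at day 10, 41.4 and 42.8 CPM at day 20, 146 and 169 CPM in CD organoids and 106 and 112 CPM in adult mCD. *Tgm2* rose by 4.04 ± 0.10 on the log2 scale from day 10 to CD organoids (SE, adjusted p = 5.13e-12 from edgeR). *Btg2*, an antiproliferative gene that many signals induce, had 23.95 and 24.03 CPM at day 10, 611 and 814 CPM at day 20 and 209.7 and 210.0 CPM in CD organoids. *Btg2* rose by 3.13 ± 0.15 on the log2 scale between day 10 and CD organoids (SE, adjusted p = 1.05e-09 from edgeR) and was called lower against adult mCD (log2 fold change -3.02). No Hox gene of the list was called between day 10 and CD organoids. *Hoxb5* had a mean of 109 CPM at day 10 and 118 CPM in CD organoids. *Hoxb4* had 168 and 94.4 CPM (adjusted p = 1.63e-06 from edgeR), under the 4-fold limit, as did *Tbx3*, a transcription factor gene, with 536 and 351 CPM.

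Against adult mCD, 2 inducible genes were called higher in CD organoids, *Tbx3* (log2 fold change 2.13) and *Hoxb5* (2.08), and 4 were called lower, *Meis2* (-4.69), *Bhlhe40* (-3.55), *Btg2* and *Rarres2* (-2.25), beside 4.50% of all genes called higher and 9.84% lower. *Hoxb5* was under 4-fold without the second adult mCD library (1.95), and *Rarres2* without the composition factor (-1.86).

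The genes with the receptor repeat in a RefSeq window gave few values. The 32 windows belong to 31 genes, 13 of which were tested, and from day 10 to CD organoids none was called higher and 2 were called lower, against 10.7% of all genes called in either direction. Their median log2 fold change was -0.88, against -0.15 over all genes tested. That median is the value of *Cyp26a1* itself, a gene near the limit of detection (adjusted p = 0.476 from edgeR), and from day 20 to CD organoids the median was 0, against 0 over all genes tested. *Rarb* and *Cyp26a1* are among the 13 and were not called. The 2 called genes were named after their values were seen. Their repeats lie close together on chromosome 2, from positions 149798960 and 149830616, so the 2 genes may not be independent observations. The repeats, shown for comparison with that of *Rarb*, read as follows in capitals.
Syndig1, chr2:149830610-149830639, plus strand: catcccGGGTCACCCCTAGTTCAgcccgcg
Gm14133, chr2:149798953-149798982, minus strand: actcaaTGACCTTTAAGTGAACTggatgtg

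*Syndig1*, which codes for a synaptic membrane protein, had 10.9 and 5.14 CPM at day 10 but 0.498 and 0.321 CPM in CD organoids (log2 fold change -4.10, adjusted p = 1.63e-05 from edgeR). *Gm14133* had 7.38 and 9.26 CPM at day 10 and 4 counts in each CD organoid library (log2 fold change -4.56, adjusted p = 5.22e-08 from edgeR).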

How the data were processed

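RNA-seq of 10 libraries in 5 groups was used. The authors deposited counts per gene. Their methods describe Partek Flow, with trimmed reads, STAR alignments and an expectation-maximisation model that shares out reads mapping to several genes. The labels name FastQC 0.11.8, cutadapt 2.5, Trimmomatic 0.36, STAR and edgeR 3.28.1, with genome build GRCm38.p6. Which route gave the deposited counts is not stated in the sources used here. The extraction and library kits named in the labels and in the methods differ. The authors also deposited RPKM values, and scaled counts (a signal named TMM). The deposited gene length behind RPKM equals the sum of exons over all transcripts plus 1 base per exon for 98.2% of genes, so RPKM were not used to compare genes, and CPM were divided by the merged exon length of GENCODE M21 instead.

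Counts were tested in R 4.3.3 with edgeR 4.0.16 (TMM factors, prior count 1, quasi-likelihood test, Benjamini-Hochberg adjustment), all 10 libraries in one fit of group means, over 24410 genes with at least 10 counts in all. TMM factors were between 0.792 and 1.12. Called genes had an adjusted p no larger than 0.01 and more than 4-fold change. Standard errors were derived from the test statistic. The fit was tested on simulated data for CD organoids against UB day 10 over 23627 genes. It recovered 100 of 100 genes changed 8-fold and 100 of 100 changed 16-fold, with 0 false calls. Both changes lie past the 4-fold limit, and recovery of changes near that limit was not tested. Recovery was not tested separately for genes whose replicates differ widely, such as *Aldh1a1* at day 10 (2.59-fold) and *Aldh1a3* at day 5 (4.58-fold). Nor was recovery tested separately for genes with few counts. Gene positions came from GENCODE M21 and promoter windows from RefSeq, both on GRCm38.

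The members and lists were chosen with earlier results of these data known. All 9 members are named, with *Aldh1a2*, *Rdh10*, *Cyp26a1*, the RXR genes, *Stra6* and *Ret*, and, of each list, up to 10 genes called between CD organoids and UB day 10 or adult mCD with a mean of at least 1 CPM over the 4 libraries, plus the 3 genes most alike to *Cyp26b1*. *Top2b*, *Hoxb4*, *Syndig1*, *Gm14133*, *Aldh1a7* against day 20 and list genes called below that mean were added after their values were seen. The values of 1 gene of both lists are not reported here, though the counts include it. Alternatives changed the scaling, the filter, the prior count, the tool (DESeq2 1.42.0, limma 3.58.1 on the deposited scaled counts with a pseudocount of 1), the threshold, the libraries in the fit and a replicate block, and left out each library in turn. Figures were drawn with matplotlib 3.10.9.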

Additional observations from a re-analysis of the deposited data

How the results depend on the processing

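With no fold limit and an adjusted p up to 0.05, 5 members were called from day 5 to day 10, 8 from day 10 to day 20, 8 between days 5 and 20, 3 from day 10 to CD organoids, 7 against day 20 and 6 against adult mCD. From day 5 to day 10, 2 were called with library totals and 2 with the replicate block, where *Aldh1a3* passed 4-fold. Leaving out 1 library gave 1 to 3 members from day 5 to day 10 (3 without the second library of day 10, 2 without the first of day 5), 2 to 4 from day 10 to day 20 (2 without the first of day 20), 3 to 3 between days 5 and 20, 1 to 1 from day 10 or day 20 to CD organoids and 1 to 2 against adult mCD (1 without the second CD organoid library).

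Among 528 member fold changes under 11 other settings, 490 kept direction and side of the threshold, 29 gained a call, 4 lost one and 5 reversed. Loosening the threshold, a setting among the 11, reused the same fit, so it could add calls but not lose or reverse any. It gave most of the gained calls. The setting without the filter is counted here as well. The reversals were *Dhrs3* from day 10 to CD organoids (-0.0848 with library totals, -0.032 without the filter, -0.0867 with limma) and *Rara* against adult mCD (0.32 with library totals, 0.32 with limma). Library totals moved the median of all genes by 0.38 (log2) against adult mCD, by 0.14 from day 5 to day 10 and by 0.11 from day 5 to day 20. With 1 library left out, signs also changed for *Dhrs3* from day 5 to day 10 (-0.0675 to 0.18) and day 10 to CD organoids (-0.12 to 0.15), *Rarg* (-0.31 to 0.24), *Crabp2* (-1.01 to 0.0317) and *Aldh1a1* (-0.72 to 0.65) from day 10 to CD organoids, *Aldh1a1* from day 5 to day 10 (-0.27 to 1.11), *Cyp26b1* against day 20 (-0.80 to 0.15) and *Rara* against adult mCD (-0.16 to 0.0304). None of these was called. The cause of each change was not tested.

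No pairing by replicate number was seen: deviations of equal numbers correlated between -0.08 and 0.10. That check cannot exclude litters or cultures shared between groups, which the labels do not give. The receptor shares by deposited length were added after seeing the data. Without the filter, edgeR's p-values dropped by many orders of magnitude (2.12e-135 for *Aldh1a3* from day 10 to day 20), so the p-values of that setting are not relied on.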
